A study of Mus musculus with 4 samples.

Results

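Potassium channel genes were followed across 4 spatially resolved transcriptomes of mouse brain organoids. The genes were taken by symbol: every listed gene whose symbol is KCN, then a subfamily letter or letters, a number and at most 1 further letter, so that pore-forming and auxiliary subunits were both included. There were 90 such genes among the 22218 genes listed in any section, and all 90 were listed in all 4 sections. The organoids were grown from mouse embryonic stem cells of the CARLIN/Cas9 genotype, an engineered line that carries a lineage barcode together with the nuclease Cas9, and every section came from this line after 3 months of culture. All 4 sections are recorded with 2% B27 supplement and a start of treatment on day 9. For section VitaminA the medium held vitamin A with the supplement. Section ATRA had 1 µM ATRA, all-trans retinoic acid, which activates all retinoic acid receptors (RARs). Section BMS753 had 1 µM BMS753, an agonist of RAR alpha. Section BMS961+BMS641 had BMS961 with BMS641 at 0.1 µM, agonists of RAR gamma and RAR beta. The dose of the BMS961+BMS641 section therefore differed from that of the other ligands. Several organoids were frozen in a mold, and a section may therefore contain parts of several. Each treatment had 1 section, without replicates, and differences between treatments could not be tested.

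Potassium channels let potassium leave or enter cells down its electrochemical gradient, and in neurons they set the resting potential, end the action potential and limit repeated firing. Voltage-gated channels open on depolarisation, calcium- and sodium-activated channels open when these ions rise inside the cell, inward rectifiers pass current best near or below the resting potential, and tandem-pore channels carry leak currents. Auxiliary subunits do not conduct by themselves and change the gating or the surface number of the pores they join. In brain tissue, astroglia take up the potassium that neurons release, largely through an inward rectifier.

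The sections differed in size, with 552 spots for VitaminA, 593 for ATRA, 469 for BMS753 and 365 for BMS961+BMS641. A spot is a small area of tissue that can hold several cells, so fewer cells of a type and less RNA per cell cannot be told apart. The deposited values are a quantile-normalised signal, and the reads or molecules behind them are unknown. Each spot has a lowest class of values, which runs on from its zeros in the order of genes and was set at 0. A gene was counted as detected in a spot when it stood above that class. The median number of genes detected per spot was between 3330 and 4659 over the sections. The level of a gene was its mean signal over spots, as ppm of the summed signal of the section. Ranges in parentheses run over the 4 quadrants of a section, which describe variation within a section and are not replicates. Of the pan-neuronal markers, 10 of 10 were listed in every section, with summed levels between 773 and 1337 ppm. The summed level of the 10 astroglial markers was between 97.4 and 220 ppm. Detection varied widely within both lists. Among neuronal markers, Rbfox3 and Syt1 were detected in 87.5% to 96.6% and 88.5% to 95.6% of spots over the sections, and Nefm and Nefl in 11.1% to 17.4% and 4.05% to 8.22%. Among astroglial markers, Slc1a2 and Slc1a3 were detected in 42.2% to 72.8% and 26.5% to 46.3% of spots, and Gfap and S100b in 2.19% to 6.34% and 0.843% to 3.99%.

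The potassium channel genes were widely detected. A VitaminA spot held a median of 36 of them, an ATRA spot 28, a BMS753 spot 27 and a BMS961+BMS641 spot 35, and every spot had at least 5. They made up a median of 0.757%, 0.820%, 0.777% and 0.791% of the genes detected in a spot in these sections, against 0.416%, 0.431%, 0.429% and 0.433% of the genes listed. The median gene of the 90 was detected in 29.8% of VitaminA spots, 22.9% of ATRA spots, 20.5% of BMS753 spots and 32.7% of BMS961+BMS641 spots, where the medians over all genes were 11.6%, 8.26%, 9.38% and 12.3%. Of the 90 genes, 71 were detected in at least 5% of the spots of every section. A further 8 reached 5% of spots in no section, and these were Kcna3, Kcna10, Kcnd1, Kcnf1, Kcnv1, Kcnk7, Kcne2 and Kcne1l. By level, 63 of the 90 reached 5 ppm in every section and 9 in none.

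**Figure D1:**
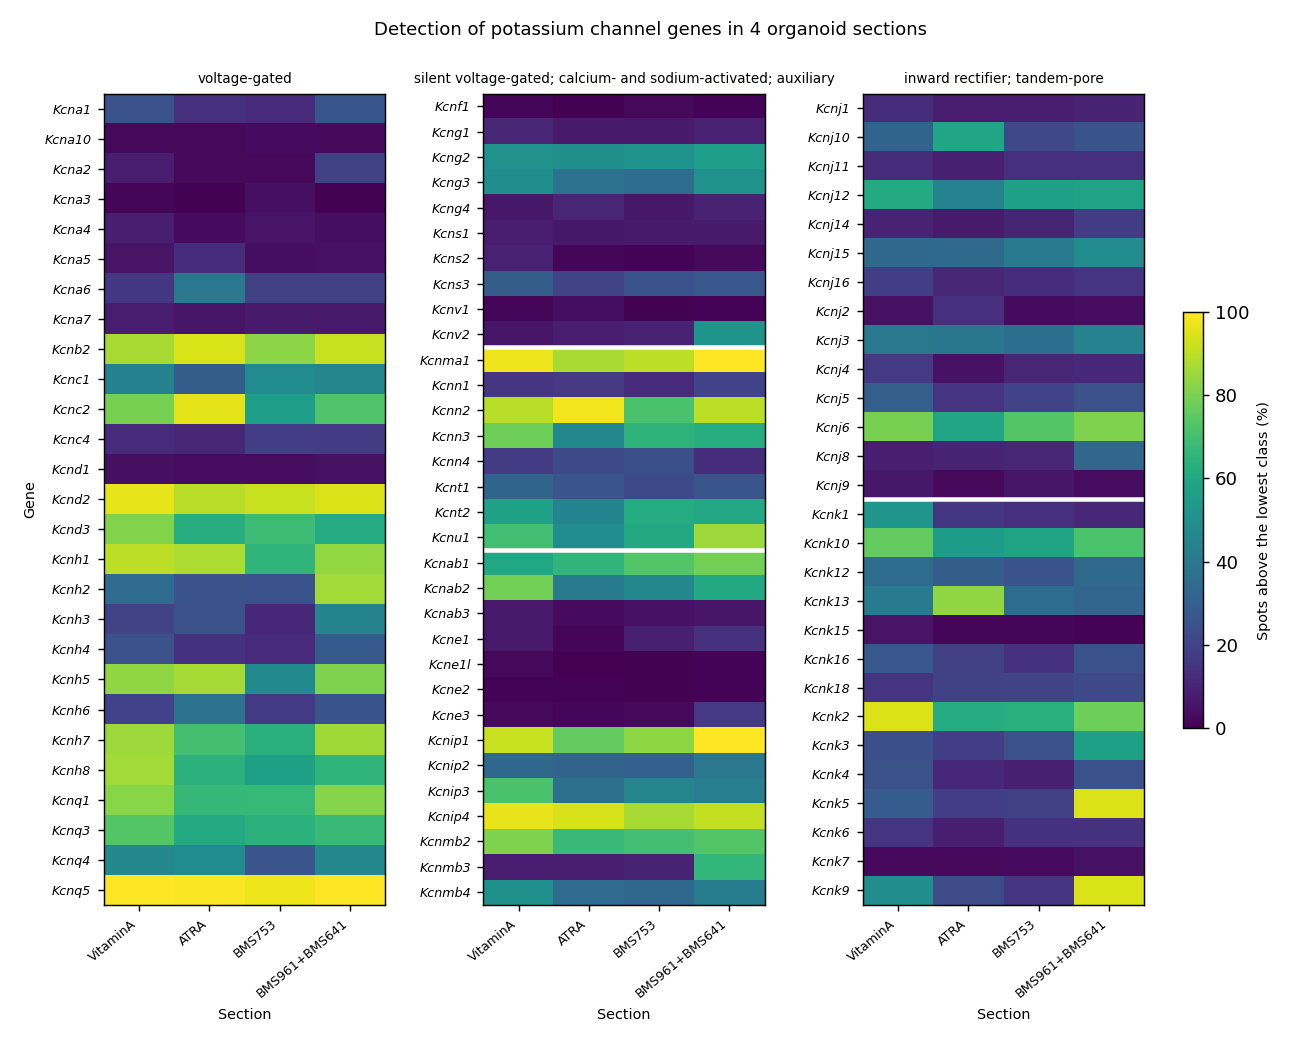
Percent of spots in which potassium channel genes stood above the lowest class (colour, 0 to 100%), with 1 row per gene and 1 column per section (n = 1 section each). Kcnq5, Kcnd2 and Kcnma1 are bright in all sections, Kcnk13 is brightest in ATRA at 83.3%, and Kcnk5, Kcnk9, Kcnmb3 and Kcnv2 are brightest in BMS961+BMS641.

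Detection followed the length of the gene on the genome. Genomic span and percent of spots had Spearman correlations across the 90 genes of 0.888 (VitaminA), 0.879 (ATRA), 0.892 (BMS753) and 0.834 (BMS961+BMS641), and of 0.799 to 0.837 over all genes. These are correlations across genes of 1 section, and genes are not replicates. Of the 90, 32 spanned under 20 kb, 35 spanned 20 to 100 kb and 23 spanned over 100 kb. Within each of these classes, in every section, the median potassium channel gene lay above the median of all genes. In VitaminA the medians were 6.79% of spots against 4.35% for short genes, 33.7% against 22.3% for genes of middle span and 83.3% against 68.5% for long genes. Levels are therefore compared between sections for a gene, and not between genes.

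**Figure D2:**
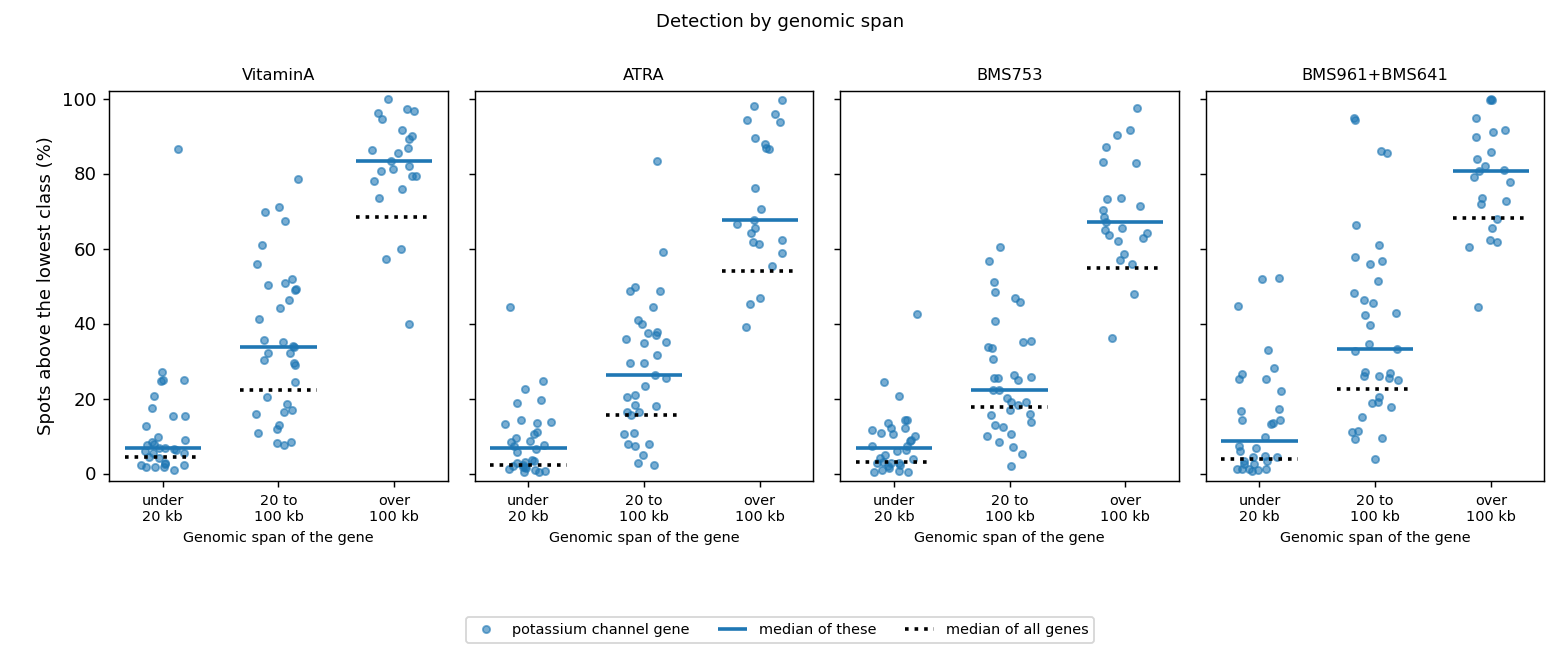
Percent of spots above the lowest class for the 90 genes (points), by genomic span class and section (n = 1 section each). Solid lines are medians of the potassium channel genes and dotted lines medians of all genes, and detection climbs with span in every section, from a median of 6.79% to 83.3% in VitaminA.

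The summed level of the 90 genes was 7155 ppm (7114 to 7194) in VitaminA, 8930 ppm (8409 to 9154) in ATRA, 8500 ppm (8023 to 8795) in BMS753 and 9413 ppm (9043 to 10119) in BMS961+BMS641. The quadrants of VitaminA lay below those of every other section, while the ranges of ATRA overlapped those of both BMS sections. Kcnq5, a pore subunit of the M-current that restrains repeated firing, led the sum in each section, taking 14.4% of the VitaminA sum, 23.4% of the ATRA sum, 18.5% of the BMS753 sum and 19.4% of the BMS961+BMS641 sum. By role, the 30 voltage-gated pore genes had a summed level of 3646 ppm in VitaminA, 5485 ppm in ATRA, 4340 ppm in BMS753 and 3995 ppm in BMS961+BMS641. The 14 tandem-pore genes summed to 750 ppm, 544 ppm, 479 ppm and 1264 ppm in the same order, and the 14 auxiliary genes to 1189 ppm, 1107 ppm, 1432 ppm and 2123 ppm. The voltage-gated sum was thus highest in ATRA, and the tandem-pore and auxiliary sums were highest in BMS961+BMS641. The latter rankings rested on 3 genes, as sums taken without the leading genes showed, a step chosen after the values were seen. Without Kcnk5 and Kcnk9 the tandem-pore sum was 655 ppm in VitaminA, 501 ppm in ATRA, 435 ppm in BMS753 and 386 ppm in BMS961+BMS641. Without Kcnip1 the auxiliary sum was 970 ppm, 906 ppm, 1086 ppm and 716 ppm in the same order. BMS961+BMS641 was then lowest in both, but only its own leading genes had been left out. The leading tandem-pore genes of other sections stayed in, such as Kcnk13 at 223 ppm in ATRA and Kcnk2 at 292 ppm in VitaminA. Both sums therefore give no ranking of the sections. Without Kcnq5 the voltage-gated sum was 2617 ppm, 3393 ppm, 2769 ppm and 2169 ppm, still highest in ATRA. That sum still held Kcnc2, at 687 ppm in ATRA and 79.7 to 130 ppm elsewhere, and Kcnb2, at 666 ppm and 233 to 432 ppm. A sum without these genes was not taken, so this ranking may also rest on few genes. The 8 calcium- and sodium-activated genes ran from 988 ppm in VitaminA to 1541 ppm in BMS961+BMS641. Kcnma1 alone gave 41.7% of the first of these sums and 62.5% of the second. The sum without Kcnma1 was not taken, so this order may rest on it. The 14 inward rectifier genes ran from 306 ppm in BMS961+BMS641 to 590 ppm in BMS753, and the 10 silent voltage-gated genes from 147 ppm in ATRA to 222 ppm in BMS753.

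**Figure D3:**
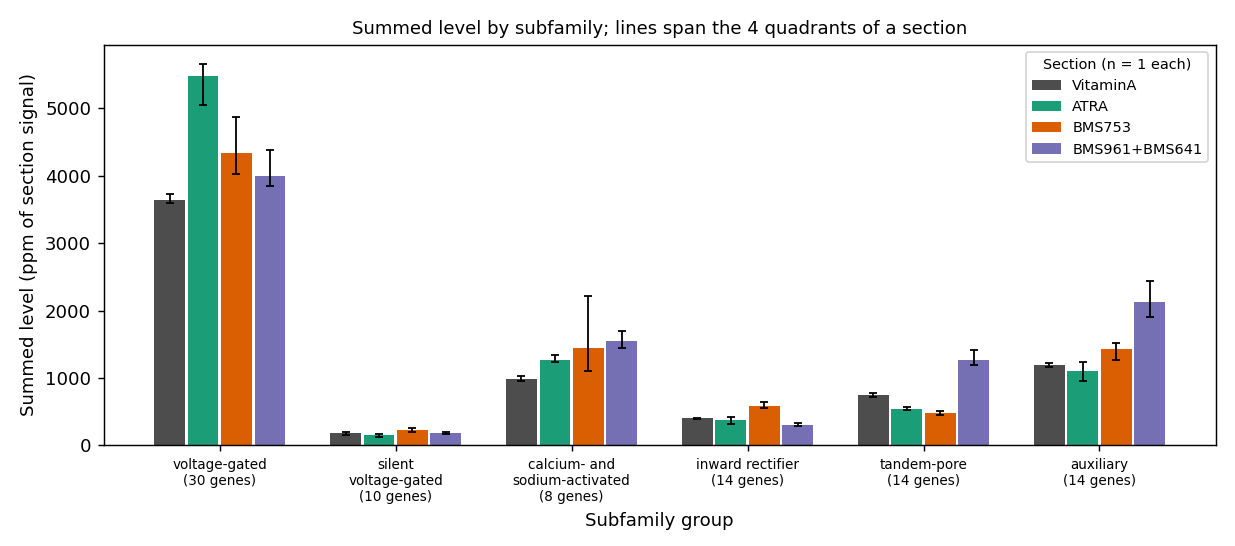
Summed level in ppm of section signal for the 6 subfamily groups (bars, from 0) in each section (n = 1 each), with lines from the lowest to the highest of 4 quadrants. Voltage-gated genes are highest in ATRA at 5485 ppm, and tandem-pore and auxiliary genes are highest in BMS961+BMS641 at 1264 and 2123 ppm, through Kcnk5, Kcnk9 and Kcnip1, while the BMS753 quadrants of the calcium- and sodium-activated genes spread from 1102 to 2211 ppm.

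Levels were compared between sections as log2 ratios with a pseudocount of 1 ppm, over genes that reached 5 ppm in 1 or both of the sections, and each ratio was centred on the median over all genes compared. A gene at least 2-fold from that centre was counted as higher or lower. In ATRA against VitaminA, 75 of the 90 genes were compared, of which 16 were higher and 6 lower. Over all 13841 genes compared, 16.7% were higher and 15.2% lower, beside 21.3% and 8% of the potassium channel genes. The median of the 75 was 0.16. Without centring the split was 9 higher and 15 lower, beside 9.58% and 31.9% of all genes, as the median log2 ratio over all genes was -0.60, so that a typical gene had a lower ppm value in ATRA than in VitaminA. In BMS753 against VitaminA, 7 of 78 were higher and 9 lower, with a median of -0.08, where 10.8% and 15% of all genes were called. In BMS961+BMS641 against VitaminA, 17 of 77 were higher and 6 lower, with a median of 0.07, where 17.5% and 15.2% of all genes were called. The uncentred splits were 10 higher and 6 lower in BMS753, beside 13.9% and 12.6% of all genes. They were 13 higher and 14 lower in BMS961+BMS641, beside 10.9% and 29.0% of all genes, whose median was -0.52. All of these comparisons share the VitaminA section.

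Between the ligands, BMS753 against ATRA had 6 of 78 genes higher and 16 lower, with a median of -0.18, where 12.3% of all genes were higher and 16.8% lower. BMS961+BMS641 against ATRA had 13 of 74 higher and 13 lower, with a median of -0.06 and backgrounds of 18.2% and 17.4%. BMS961+BMS641 against BMS753 had 16 of 78 higher and 5 lower, with a median of 0.12 and backgrounds of 17.1% and 12.9%. Uncentred, BMS753 against ATRA had 21 higher and 7 lower, beside 36.2% and 8.57% of all genes. BMS961+BMS641 against ATRA had 13 and 13, beside 20.2% and 15.7%, and BMS961+BMS641 against BMS753 had 9 higher and 20 lower, beside 9.57% and 32.7%. The medians of the family lay within 0.18 of the median of all genes in every comparison, and the genes with the largest differences are described below by role. None of these differences has a replicate check.

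**Figure D4:**
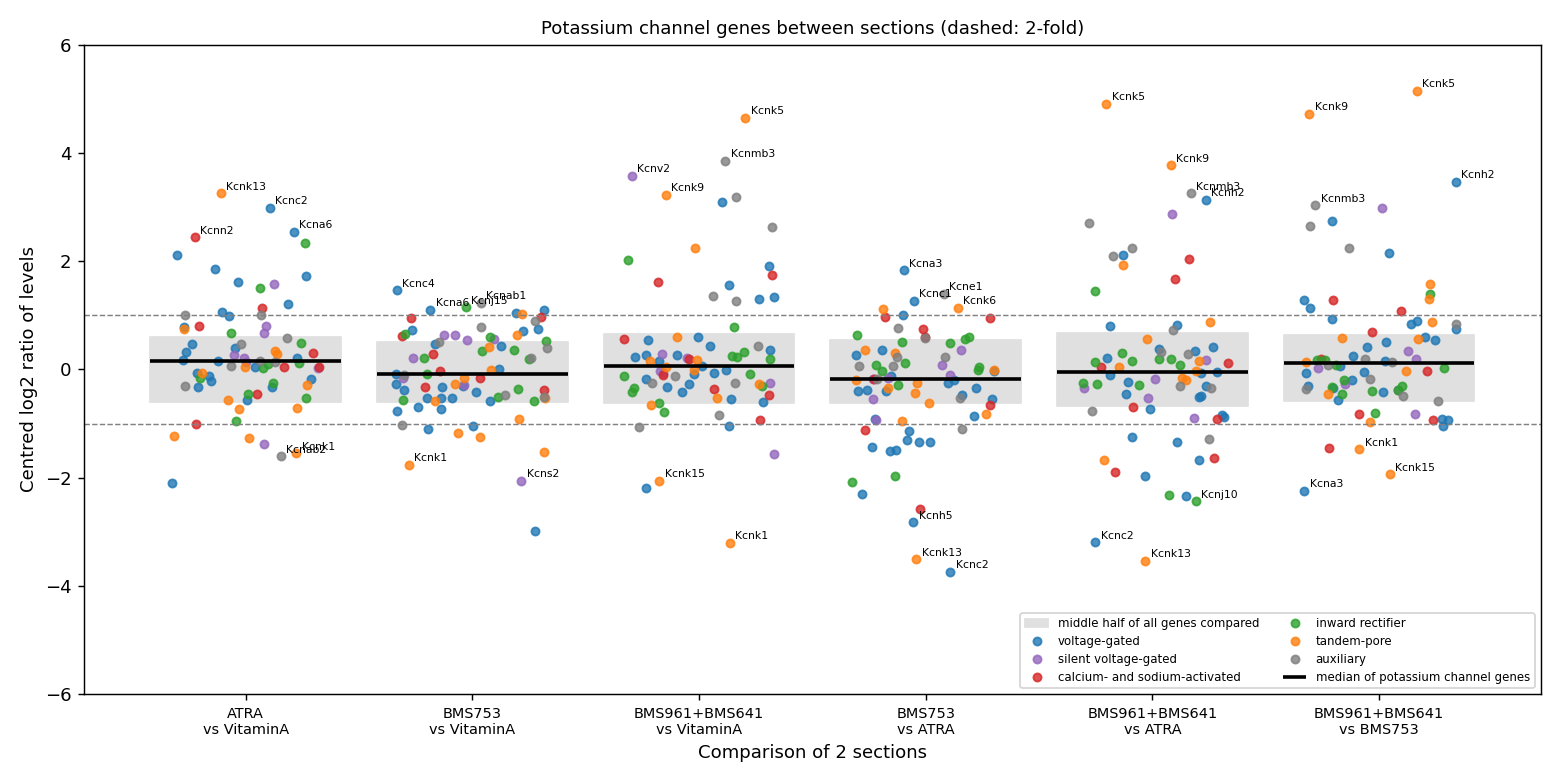
Centred log2 ratios of levels for the potassium channel genes (points, coloured by subfamily group) in the 6 comparisons of sections (n = 1 each). Grey boxes run from the lower to the upper quartile of all genes compared, black bars are medians of the family and dashed lines mark 2-fold. The black bars stay between -0.18 and 0.16, while Kcnk13 and Kcnc2 stand high in ATRA and Kcnk5 and Kcnk9 in BMS961+BMS641.

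Among voltage-gated pores, several were highest in ATRA. Kcnc2 makes channels that close fast enough for high-frequency firing. Its level was 130 ppm (124 to 140) in VitaminA, 687 ppm (603 to 766) in ATRA, 84.5 ppm (75.4 to 96.1) in BMS753 and 79.7 ppm (75.2 to 83.2) in BMS961+BMS641, with detection in 79.3%, 96.0%, 55.9% and 72.6% of spots. The ATRA quadrants lay above all others, and the centred log2 ratio was 2.99 against VitaminA, -3.73 for BMS753 against ATRA and -3.19 for BMS961+BMS641 against ATRA. Kcnh5, an ether-a-go-go channel, was at 185 ppm in VitaminA, 407 ppm in ATRA, 94.2 ppm in BMS753 and 136 ppm in BMS961+BMS641. Kcna6, a delayed rectifier of the Shaker subfamily, was at 7.89 ppm, 33.3 ppm, 20.1 ppm and 6.27 ppm, a centred ratio of 2.55 in ATRA against VitaminA. Its ATRA quadrants (28.1 to 39.6) overlapped those of BMS753 (8.20 to 34.9). Kcnq5 was at 1029.55 ppm in VitaminA, 2093 ppm in ATRA, 1571 ppm in BMS753 and 1826 ppm in BMS961+BMS641, and was detected in at least 97.4% of the spots of each section. Kcnb2, a delayed rectifier, was at 233 ppm, 666 ppm, 432 ppm and 401 ppm, and its BMS961+BMS641 quadrants ran from 232 to 844 ppm, across nearly the whole span of the other sections. Of the 25 voltage-gated genes compared in ATRA against VitaminA, 8 were higher and 1 lower, where 16.7% and 15.2% of all genes were called.

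Kcnq3, an M-channel pore subunit like Kcnq5, was at 147 ppm, 113 ppm, 163 ppm and 85.2 ppm in the order VitaminA, ATRA, BMS753 and BMS961+BMS641, less than 2-fold from the centre in every comparison. The pan-neuronal markers summed to 916 ppm in VitaminA, 773 ppm in ATRA, 1308 ppm in BMS753 and 1337 ppm in BMS961+BMS641. Stmn2 alone gave 572 ppm of the last value, and without it the sums were 901 ppm, 759 ppm, 1262 ppm and 765 ppm. The median centred ratio of the 10 markers against VitaminA was 0.051 for ATRA, 0.064 for BMS753 and -0.15 for BMS961+BMS641, and their part in the levels of the voltage-gated genes was not tested.

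Other voltage-gated genes were highest in the BMS sections. Kcnh2, the ether-a-go-go-related channel that repolarises heart muscle and is also found in neurons, was at 24.4 ppm in VitaminA, 15.1 ppm in ATRA, 20.1 ppm in BMS753 and 150 ppm (139 to 172) in BMS961+BMS641, where it was detected in 86.0% of spots. All BMS961+BMS641 quadrants lay above those of the other sections, and the centred ratio was 3.09 against VitaminA and 3.47 against BMS753. Kcnd2, which carries the A-type current of dendrites, was at 373 ppm in VitaminA, 324 ppm in ATRA, 686 ppm in BMS753 and 334 ppm in BMS961+BMS641. Its detection was 96.2%, 89.4%, 91.7% and 94.8% of spots in that order, so by this measure it was highest in VitaminA. Kcnc4 was at 11.5 ppm, 10.5 ppm, 37.0 ppm and 10.9 ppm, and Kcnc1 at 36.5 ppm, 20.4 ppm, 84.2 ppm and 28.1 ppm in the same order. Both are relatives of Kcnc2, and both were highest in BMS753, where Kcnc2 was low. Against VitaminA the centred ratios in BMS753 were 1.46 for Kcnc4 and 1.04 for Kcnc1. The 10 striated muscle markers were also highest there, summing to 540 ppm against 297 ppm in VitaminA, 188 ppm in ATRA and 191 ppm in BMS961+BMS641, with a median centred ratio of 0.55 against VitaminA over the 7 compared. Of these, 2 were 2-fold higher and 0 lower, where 10.8% and 15% of all genes were called. The 2 were Ryr1 at 212 ppm against 86.5 ppm and Myh3 at 153 ppm against 53.7 ppm. Myog was at no more than 2.14 ppm in any section, and the part of the muscle markers in the BMS753 levels was not tested. The Shaker genes Kcna1 and Kcna2, channels of axons, were at 13.3 to 25.9 ppm and 1.04 to 8.48 ppm over the sections, with detection in 12.2% to 26.6% and 2.13% to 19.2% of spots.

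Silent voltage-gated subunits do not form channels alone and modify the pores of the Kcnb subfamily. Kcng2 and Kcng3 were detected most, in 49.7% to 55.9% and 35.4% to 51.2% of spots, with levels of 33.9 to 69.0 ppm and 51.1 to 76.2 ppm. Kcnv2, a subunit known from photoreceptors, was at 5.60 ppm in VitaminA, 5.96 ppm in ATRA, 9.76 ppm in BMS753 and 54.0 ppm (42.3 to 58.8) in BMS961+BMS641. It was detected in 51.8% of BMS961+BMS641 spots and in 5.98% to 10.0% of those elsewhere, and the centred ratio against VitaminA was 3.57. Kcns2 was at 7.73 ppm in VitaminA and 1.07 to 1.31 ppm in the ligand sections, with detection in 9.06% and at most 2.47% of spots.

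Of the calcium-activated genes, Kcnma1, the pore of the large-conductance BK channel, was at 412 ppm (387 to 425) in VitaminA, 280.0 ppm (257 to 345) in ATRA, 699 ppm (383 to 1449) in BMS753 and 964 ppm (841 to 1139.8) in BMS961+BMS641. The BMS753 quadrants overlapped those of VitaminA and of BMS961+BMS641, and the spread within that section was as wide as the differences between sections. Kcnn2, a small-conductance channel that shapes the pause after spikes, was at 220 ppm in VitaminA, 796 ppm (756 to 848) in ATRA, 218 ppm in BMS753 and 228 ppm in BMS961+BMS641, a centred ratio of 2.44 in ATRA against VitaminA. Its relative Kcnn3, which is expressed in dopamine neurons, was at 122 ppm, 39.7 ppm (31.4 to 44.6), 131 ppm and 44.1 ppm (41.2 to 48.3), so that ATRA and BMS961+BMS641 overlapped below the other sections. Kcnu1, a relative of Kcnma1 known from sperm and grouped here by family and not by gating, was at 96.4 ppm, 46.3 ppm, 131 ppm and 207 ppm.

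Among inward rectifiers, Kcnj10 carries most of the potassium uptake of astroglia. Its level was 33.0 ppm (29.4 to 35.6) in VitaminA, 113 ppm (98.8 to 127) in ATRA, 46.8 ppm (32.4 to 61.0) in BMS753 and 21.6 ppm (14.0 to 28.4) in BMS961+BMS641, with detection in 32.1%, 59.0%, 22.2% and 26.0% of spots. All ATRA quadrants were above those of the other sections, and the centred ratios were 2.34 for ATRA against VitaminA and -2.43 for BMS961+BMS641 against ATRA. The summed level of the astroglial markers was 209 ppm in VitaminA, 97.4 ppm in ATRA, 220.3 ppm in BMS753 and 126 ppm in BMS961+BMS641, with 10 genes listed in each section but BMS753, which had 9. It was lowest in ATRA, where Kcnj10 was highest, the median centred ratio of the 6 markers compared was -0.41 against VitaminA, and their part in the result was not tested. Kcnj6, a G-protein-gated channel that mediates slow inhibition, was at 144 ppm, 96.4 ppm, 229 ppm and 119 ppm in the order VitaminA, ATRA, BMS753 and BMS961+BMS641, and Kcnj12, a classical strong rectifier, at 66.7 ppm, 47.7 ppm, 117 ppm and 42.8 ppm. Kcnj15 was at 19.0 ppm, 20.2 ppm, 48.0 ppm and 23.2 ppm. Kcnj3, which joins Kcnj6 in G-protein-gated channels, was at 45.5 ppm, 42.4 ppm, 57.9 ppm and 37.9 ppm. By ppm these 4 genes were highest in BMS753, but by percent of spots none of them was. Kcnj3 was detected in 36.0% of BMS753 spots and in 39.1% to 44.4% of those elsewhere. Its BMS753 quadrants (52.4 to 61.7) overlapped those of VitaminA (40.2 to 53.5). Of the 13 inward rectifiers compared in BMS753 against VitaminA, only Kcnj15 was 2-fold higher, at 1.15. In that comparison none was 2-fold lower, where 10.8% of all genes were called higher and 15% lower.

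The largest ratios of the family were those of tandem-pore genes. Kcnk13, a halothane-inhibited leak channel that is also the main resting conductance of microglia, was at 34.5 ppm (29.6 to 40.2) in VitaminA, 223 ppm (206 to 234) in ATRA, 31.6 ppm (23.6 to 35.7) in BMS753 and 19.7 ppm (15.4 to 22.8) in BMS961+BMS641. Detection was 41.1%, 83.3%, 35.2% and 32.6% of spots, and no ATRA quadrant overlapped another section. The centred ratios were 3.25 for ATRA against VitaminA, -3.50 for BMS753 against ATRA and -3.54 for BMS961+BMS641 against ATRA. The 7 microglial and macrophage markers listed summed to 101 ppm in VitaminA, 75.9 ppm in ATRA, 104 ppm in BMS753 and 137 ppm in BMS961+BMS641. Cx3cr1 alone gave 109 ppm of the last value, against 24.0 to 41.6 ppm elsewhere, and the sum without it was not taken. The sum of the 7 was lowest in ATRA, where Kcnk13 was highest, but on the centred scale the median of the 5 compared in ATRA against VitaminA was 0.61. C1qa was 2-fold higher there, at 6.91 ppm against 1.00 ppm and a ratio of 2.58, and Tmem119 2-fold lower, at 10.2 ppm against 35.5 ppm and -1.10. Cx3cr1 stood at 0.71, Ptprc at 0.61 and Csf1r at -0.81, Cd68 and Aif1 were at no more than 1.87 and 3.32 ppm in any section, and the part of these markers in the Kcnk13 level was not tested. Kcnk12, the closest relative of Kcnk13, was at 46.7 ppm, 39.2 ppm, 51.4 ppm and 36.6 ppm in the same order and did not share the ATRA level.

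Kcnk5, a leak channel that opens at alkaline pH and is known from kidney and other epithelia, was at 21.2 ppm (15.0 to 27.1) in VitaminA, 11.1 ppm (6.00 to 14.9) in ATRA, 15.9 ppm (8.45 to 27.7) in BMS753 and 387 ppm (370.1 to 404) in BMS961+BMS641. It was detected in 29.0%, 18.0%, 19.0% and 94.8% of spots. Kcnk9, an acid-sensitive leak channel of neurons, was at 74.2 ppm, 32.5 ppm, 27.8 ppm and 491 ppm (444 to 549), with detection in 49.1%, 23.3%, 15.8% and 94.2% of spots. For both genes the BMS961+BMS641 quadrants stood far above all others. The centred ratios of BMS961+BMS641 were 4.64 for Kcnk5 and 3.22 for Kcnk9 against VitaminA, 4.90 and 3.77 against ATRA, and 5.14 and 4.72 against BMS753. The 7 epithelial markers summed to 169 ppm in VitaminA, 112 ppm in ATRA, 195 ppm in BMS753 and 1686 ppm in BMS961+BMS641, where Epcam was at 987 ppm and Cdh1 at 538 ppm while Krt5 was at 0.389 ppm, Krt14 at 1.05 ppm and Krt8 at 4.03 ppm. Stmn2 was at 572 ppm there and at 13.7 to 46.8 ppm elsewhere, unlike most of the neuronal markers. In BMS961+BMS641 against VitaminA, 2 of the 10 were 2-fold higher and 0 lower, where 17.5% and 15.2% of all genes were called. Rbfox3 was at 213 ppm in BMS961+BMS641 and 251 to 516 ppm elsewhere, and its centred ratio against VitaminA was -0.12. The part of these markers in the Kcnk5 and Kcnk9 levels was not tested. Kcnk3, the acid-sensitive relative that pairs with Kcnk9, was also highest in BMS961+BMS641, with 11.6 ppm, 9.12 ppm, 20.6 ppm and 40.6 ppm (37.2 to 43.6) in the order VitaminA, ATRA, BMS753 and BMS961+BMS641.

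Kcnk1 and Kcnk2 were highest in VitaminA. Kcnk1, a weakly conducting leak channel, was at 46.1 ppm (37.9 to 53.3) in VitaminA, 9.66 ppm in ATRA, 14.4 ppm in BMS753 and 2.59 ppm in BMS961+BMS641, with detection in 52.0%, 16.4%, 13.9% and 11.0% of spots. Its centred ratios against VitaminA were -1.55, -1.76 and -3.20. Kcnk2, a leak channel gated by membrane stretch, was at 292 ppm (274 to 306), 81.6 ppm, 135 ppm and 129 ppm, and the VitaminA quadrants lay above those of the other sections. Kcnk10, a relative of Kcnk2 with the same kind of gating, was at 128 ppm in VitaminA and 87.4 to 94.5 ppm in the ligand sections, less than 2-fold from the centre in every comparison. Kcnk15 was at 6.46 ppm, 1.05 ppm, 6.39 ppm (1.75 to 17.3) and 0.254 ppm, and was detected in 5.43% of VitaminA spots and at most 1.49% of those elsewhere, so that its ratios rest on few spots. A gene was taken as marking 1 section where it was detected in at least 50% of its spots and in at most 20% of those of each other section. Kcnk1 met this in VitaminA, and Kcnv2 and Kcnmb3 in BMS961+BMS641. Over the 19783 genes listed in all sections, 0.748% met it for VitaminA, 0.566% for ATRA, 0.0354% for BMS753 and 0.935% for BMS961+BMS641.

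Auxiliary subunits were led by Kcnip4 and Kcnip1, calcium-binding partners of the A-type pores. Kcnip1 was at 219 ppm (206 to 234) in VitaminA, 201 ppm (173 to 237) in ATRA, 346 ppm (284 to 398) in BMS753 and 1407 ppm (1262 to 1749) in BMS961+BMS641, a centred ratio of 3.19 against VitaminA. Kcnip4 was at 393 ppm, 524 ppm, 403 ppm and 230.3 ppm in the same order, and was lowest in BMS961+BMS641, though less than 2-fold from the centre against VitaminA. Their pore gene Kcnd2 was within 2-fold of the centre between BMS961+BMS641 and each other section. Kcnmb3, an auxiliary subunit of BK channels, was at 6.99 ppm, 6.86 ppm, 14.2 ppm and 79.6 ppm (59.3 to 93.8), with detection in 66.3% of BMS961+BMS641 spots and at most 10.0% of those elsewhere. Its relative Kcnmb2 was at 140.0 ppm, 103 ppm, 178 ppm and 89.97 ppm. By ppm Kcnmb2 was lowest in BMS961+BMS641, but its quadrants there overlapped those of ATRA. Its centred ratio in BMS961+BMS641 against VitaminA was -0.12, near the median of all genes. By percent of spots Kcnmb2 was lowest in ATRA, at 67.6% against 73.4% in BMS961+BMS641. Kcnab2, a cytoplasmic partner of Shaker pores, was at 113 ppm, 23.9 ppm, 60.7 ppm and 43.3 ppm and was highest in VitaminA. Kcnab1, of the same kind, was at 81.7 ppm, 109 ppm, 214 ppm and 147 ppm and was lowest there. Among the small single-pass Kcne subunits, Kcne3, known from epithelia, was at 1.04 to 2.06 ppm in the other sections and 8.42 ppm (3.61 to 14.5) in BMS961+BMS641, the section with the highest epithelial marker sum, whose part was not tested. Of the 11 auxiliary genes compared in BMS961+BMS641 against VitaminA, 5 were higher and 1 lower, where 17.5% and 15.2% of all genes were called.

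Genes whose products work with these channels were described from fixed lists. Of 16 channel partner genes compared in ATRA against VitaminA, 6 were higher and 2 lower, where 16.7% and 15.2% of all genes were called. Against VitaminA the counts were 2 higher and 1 lower of 17 in BMS753, and 3 higher and 2 lower of 16 in BMS961+BMS641. Lrrc38, an auxiliary of BK channels, was at 8.72 ppm in VitaminA, 252 ppm in ATRA, 9.97 ppm in BMS753 and 9.68 ppm in BMS961+BMS641. Its centred ratio in ATRA against VitaminA was 5.30. The BK pore Kcnma1 had its lowest ppm value in ATRA, but its centred ratio there against VitaminA was 0.042. Of the 11 genes of potassium pumps and cotransporters, 2 were higher and 1 lower for ATRA, 0 higher and 2 lower for BMS753, and 3 higher and 0 lower for BMS961+BMS641, each against VitaminA. The shares over all genes were 16.7% and 15.2%, 10.8% and 15%, and 17.5% and 15.2%. Of the 4 hyperpolarisation-activated cation channel genes, Hcn3 was 62.0 ppm in BMS753 and 8.28 to 11.5 ppm elsewhere.

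Within sections, neighbouring spots were alike in some of the genes. Moran's I, which is near 0 for a scattered gene and rises as neighbours grow alike, was computed over 8 grid neighbours for genes detected in at least 5% of spots. The median over the potassium channel genes was 0.023 (VitaminA), 0.024 (ATRA), 0.035 (BMS753) and 0.024 (BMS961+BMS641), against 0.010, 0.017, 0.024 and 0.015 over all genes. The family was also detected in more spots than the median gene, and this part was not tested. The highest were 0.133 for Kcnip3 in VitaminA, 0.104 for Kcnk2 in ATRA, 0.143 for Kcnq5 in BMS753 and 0.106 for Kcnk2 in BMS961+BMS641. Kcnip3, a calcium-binding protein that also acts on transcription, was at 132 ppm (111 to 151) in VitaminA, and was missing from many spots on the low side of the first coordinate. Kcnk5 had a value of -0.05 in BMS961+BMS641, where it was detected in 94.8% of spots, so by this measure neighbouring spots were not alike in its level.

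**Figure D5:**
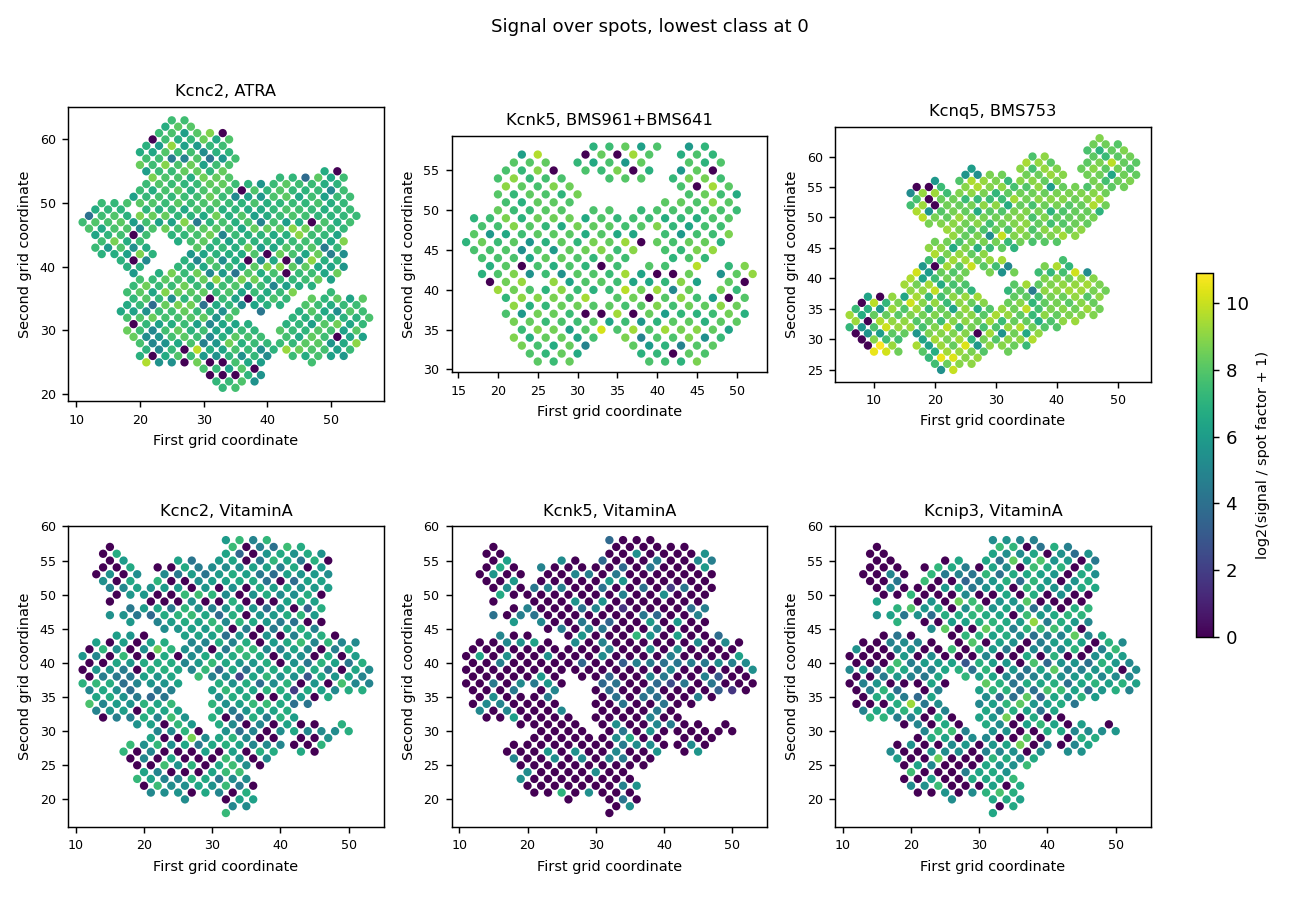
Spot maps of log2 of signal divided by the spot factor, plus 1 (colour, lowest class at 0), for Kcnc2 in ATRA and VitaminA, Kcnk5 in BMS961+BMS641 and VitaminA, Kcnq5 in BMS753 and Kcnip3 in VitaminA, with the array grid coordinates on the axes. Kcnc2 fills 96.0% of ATRA spots and Kcnk5 94.8% of BMS961+BMS641 spots, spread over the section, whereas Kcnip3 (71.2% of VitaminA spots) is patchier, with a Moran's I of 0.133.

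Promoters of 4 of the genes that stood highest in a single ligand section are shown because retinoid receptors bind DNA at AGGTCA-like half-sites. The windows are from RefSeq on build GRCm38.p6, written 5′ to 3′ on the strand of the gene, with AGGTCA or AGTTCA on either strand in capitals. Kcnk13, Kcnc2 and Kcnj10 were highest in ATRA, and Kcnk5 in BMS961+BMS641.
Kcnk13, chr12:99964249-99964548, plus strand: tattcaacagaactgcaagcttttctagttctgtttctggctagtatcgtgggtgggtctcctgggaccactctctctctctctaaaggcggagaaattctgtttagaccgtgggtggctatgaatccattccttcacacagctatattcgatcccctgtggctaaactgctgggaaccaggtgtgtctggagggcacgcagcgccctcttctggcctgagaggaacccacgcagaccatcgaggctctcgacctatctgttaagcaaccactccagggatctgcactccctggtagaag
Kcnc2, chr10:112270871-112271170, plus strand: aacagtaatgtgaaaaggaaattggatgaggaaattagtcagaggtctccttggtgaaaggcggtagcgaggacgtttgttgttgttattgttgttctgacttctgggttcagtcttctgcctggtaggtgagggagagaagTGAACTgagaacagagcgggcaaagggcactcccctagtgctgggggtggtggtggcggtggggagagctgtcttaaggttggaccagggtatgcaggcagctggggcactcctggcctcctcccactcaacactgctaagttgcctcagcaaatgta
Kcnj10, chr1:172340960-172341259, plus strand: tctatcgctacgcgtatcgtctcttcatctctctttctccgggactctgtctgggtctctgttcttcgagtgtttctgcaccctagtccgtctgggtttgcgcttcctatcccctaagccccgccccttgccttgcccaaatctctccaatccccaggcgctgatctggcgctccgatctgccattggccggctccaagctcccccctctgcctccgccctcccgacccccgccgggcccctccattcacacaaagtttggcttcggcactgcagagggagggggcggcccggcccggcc
Kcnk5, chr14:20181733-20182032, minus strand: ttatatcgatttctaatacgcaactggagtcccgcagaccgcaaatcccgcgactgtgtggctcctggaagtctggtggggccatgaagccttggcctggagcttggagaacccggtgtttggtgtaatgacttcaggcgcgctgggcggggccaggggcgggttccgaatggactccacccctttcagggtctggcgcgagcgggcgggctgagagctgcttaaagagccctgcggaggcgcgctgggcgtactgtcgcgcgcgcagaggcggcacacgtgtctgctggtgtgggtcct
Kcnc2 has 4 windows in the table, of which 1 is shown. That window and another that overlaps it hold the same half-site, AGTTCA on the minus strand. The other windows of Kcnc2 hold neither AGGTCA nor AGTTCA, and the same holds for the windows shown of Kcnk13, Kcnj10 and Kcnk5. The windows of Kcnip1, Kcnmb3 and Kcnh2, which were highest in BMS961+BMS641, are not shown and hold neither AGGTCA nor AGTTCA. Other spellings of the half-site were not searched. Of the 90 genes, 65 matched the promoter table, with 90 windows. AGGTCA was found in 6 of these windows (6.67%) and in 16.3% of all 32851 windows, and AGTTCA in 10 (11.1%) and 14.0%. A direct repeat of either half-site with 2 or 5 bases between was found in 0 of the 90 windows and in 0.0396% of all windows for each spacing. TATAAA, the core of the TATA box, was found in 4 windows (4.44%), against 13.6% of all. The windows of the family had a median GC content of 58.3%, against 52.7% over all. A match here is a description of letters, and a window with no match says nothing about receptor binding.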

How the data were processed

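Poly-T array libraries of 4 organoid sections were used, 1 per treatment. Per the labels' protocols, RNA was captured on barcoded poly-T arrays and sequenced as paired ends. Per the submitters' processing notes, the build was mm9. Sources used here do not give the aligner, the counting method, whether counting used strand, or the spot filter. The deposited values are a quantile-normalised signal per gene and spot: in every spot of a section the sorted values are the same times a factor of the spot, as checked on the files. Reads of overlapping genes cannot be told apart, and the depth of a spot is unknown.

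The lowest class of each spot, which in 100% of spots of each section follows its zeros in gene order, was set at 0. Levels, ratios, quadrants and Moran's I were computed as the report states. Spans and promoters came from RefSeq on GRCm38.p6. For spans 90 of 90 genes matched, by symbol or synonym, and for promoters 65 of the 90 matched by symbol. As this build differs from mm9, spans were used only as 3 classes and for ranks. With 1 section per group there was no test, and no p-value was computed.

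Named genes were the 3 most widely detected of each subfamily group, the 3 highest and 3 lowest of each comparison among genes of at least 5 ppm and in 5% of the spots of either section, a fixed set of 14 well-known channels, and genes marking 1 section. Other genes were named after their values were seen. Some genes are not reported here by name, and counts and sums include them. The members and lists were chosen with earlier results of these data known. Alternatives changed the lowest class, ties, spot factor, measure, pseudocount, filter, centring, leading genes and spots, and sums without leading genes were added after seeing the data. A comparison of pore sequences had been planned and was not done. The steps were tested on simulated data. The software was matplotlib 3.10.9, scipy 1.17.1, pandas 2.3.3 and numpy 2.4.6 under Python 3.11.15.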

Additional observations from a re-analysis of the deposited data

How the results depend on the processing

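No paired analysis was possible because each group has 1 section. Alternatives moved these results; the cause was not tested. Without centring, members higher and lower were 9 and 15 in ATRA vs VitaminA, 13 and 14 in BMS961+BMS641 vs VitaminA, 21 and 7 in BMS753 vs ATRA and 9 and 20 in BMS961+BMS641 vs BMS753, with medians of -0.44, -0.45, 0.55 and -0.51 for these, and 0.060 for BMS753 vs VitaminA. With percent of spots, members higher were 7 in ATRA vs VitaminA, 1 in BMS753 vs VitaminA, 10 in BMS961+BMS641 vs VitaminA, 2 in BMS753 vs ATRA and 10 in BMS961+BMS641 vs BMS753. Those lower were 7 in BMS753 vs ATRA, 6 in BMS961+BMS641 vs ATRA and 2 in BMS961+BMS641 vs BMS753, and the median of BMS753 vs VitaminA was 0.029. Over all genes, this measure called 9.49%, 6.55%, 10.3%, 8.50% and 9.65% higher in those 5 comparisons, and 9.11%, 9.60% and 7.32% lower in those 3. On this scale Kcnma1 turned to -0.21 and Kcnip1 to -0.016 in BMS961+BMS641 vs ATRA, and to -0.12 and -0.0013 in BMS961+BMS641 vs BMS753, as both were in 76.0% to 99.7% of the spots of these sections. With values as deposited, medians were 0.018 in ATRA vs VitaminA and -0.010 in BMS961+BMS641 vs VitaminA, members higher were 3 in BMS753 vs VitaminA and 2 in BMS753 vs ATRA, and those lower 2 in BMS961+BMS641 vs BMS753. Kcnk15 turned to 0.15 in ATRA vs VitaminA and 0.10 in BMS961+BMS641 vs VitaminA. With the spot factor divided out, members higher were 4 in BMS753 vs VitaminA and 3 in BMS753 vs ATRA, and those lower 3 in BMS961+BMS641 vs BMS753. With a pseudocount of 5 ppm, the median of ATRA vs VitaminA was 0.072, members higher were 3 in BMS753 vs VitaminA and 3 in BMS753 vs ATRA, and 1 was lower in BMS961+BMS641 vs BMS753. With at least 20 ppm, members higher were 9 in ATRA vs VitaminA, with a median of 0.024, and 4 in BMS753 vs VitaminA. Without the 10 genes of most signal, the median of BMS961+BMS641 vs VitaminA was 0.16 and the sums were 8442 ppm in VitaminA, 10470 ppm in ATRA, 9956 ppm in BMS753 and 11430 ppm in BMS961+BMS641. The VitaminA sum was 6970 ppm as deposited, 7281 ppm with tie class means and 7107 ppm with the spot factor divided out, and as deposited the ATRA and BMS753 sums were 8567 and 7924 ppm. Over all genes and the 6 comparisons, shares higher and lower ran over 6.77% to 15.7% and 6.41% to 14.8% as deposited, 10.1% to 17.3% and 11.5% to 16.8% with the spot factor divided out, 6.11% to 13.8% and 6.24% to 12.8% with a pseudocount of 5 ppm, and 11.3% to 22.0% and 13.3% to 21.4% with at least 20 ppm. Of 96 ratios of named genes past 2-fold, 77 stayed past it as deposited, 43 with percent of spots, 73 with a pseudocount of 5 ppm, 78 without centring and 96 without the 10 genes of most signal.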
